A study of Mus musculus with 63 samples.

Results

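Ppp1r3c, Gys1 and Gbe1 are 3 genes of glycogen synthesis, and they were measured in mouse embryonic stem cells kept at normal or low oxygen. The members were all probes that the array annotation gave to these symbols, which came to 4 of 25697 probes, 1 for Ppp1r3c, 2 for Gys1 and 1 for Gbe1, and to 3 of the 16593 genes that a probe of the array named. The series held 63 Illumina bead arrays, one for each culture, of 7 lines of TT2 cells (a C57BL/6 x CBA strain background), which the labels call male. The lines were 2 wild-type lines (WT1 and WT2), 2 knockout lines for JMJD1a (JMJD1a KO1 and KO2), 2 knockout lines for G9a (G9a KO1 and KO2), and 1 line of G9a KO1 reconstituted with a G9a transgene. Jmjd1a (gene symbol Kdm3a) removes methyl groups from lysine 9 of histone H3, and G9a (gene symbol Ehmt2) adds them. Each line was plated at densities of 2, 4 and 6, counted in 100000 cells on a 6 cm plate, and then held for 24 h in normoxia (21% oxygen), in normoxia ending with 4 h of hypoxia (1% oxygen), or in hypoxia for all 24 h. Wild-type, JMJD1a KO and G9a KO cells thus had 6 cultures from 2 lines at each exposure, and reconstituted cells had 3 cultures from 1 line. The promoter of the transgene is not given in the sources used here, and the reconstituted cells were 1 line.

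Glycogen is a branched store of glucose. Glucose 6-phosphate is turned into glucose 1-phosphate by phosphoglucomutase and then into UDP-glucose, glycogen synthase adds the glucose to a growing chain, and the branching enzyme moves short stretches of the chain to make branches. Gys1 encodes the muscle-type glycogen synthase, which is used by most tissues other than liver, and Gbe1 encodes the branching enzyme. Ppp1r3c encodes a targeting subunit, also called PTG, that holds protein phosphatase 1 on the glycogen particle, where the phosphatase activates glycogen synthase by removing phosphate and turns off glycogen breakdown. Low oxygen acts on transcription largely through hypoxia-inducible factors, which bind DNA at short hypoxia response elements with a common core of letters. In other cell types, hypoxia is known to raise glycogen stores and to induce glycogen genes through these factors.

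The promoters of the 3 genes are shown because the core of the hypoxia response element can be read directly in their letters. The 250 bases before each gene's annotated start were taken from RefSeq (GRCm38.p6) and searched on both strands for ACGTG and GCGTG, with each match in capitals. A match on the other strand reads CACGT or CACGC on the printed strand, and where CACGTG occurs the matches of both strands overlap and count as 1 place.
Ppp1r3c, chr19:36736605-36736854, minus strand: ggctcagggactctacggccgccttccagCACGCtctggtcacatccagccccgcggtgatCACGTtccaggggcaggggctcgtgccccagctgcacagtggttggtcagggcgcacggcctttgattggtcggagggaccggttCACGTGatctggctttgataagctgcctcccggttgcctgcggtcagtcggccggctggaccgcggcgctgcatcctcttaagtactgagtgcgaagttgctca
Gys1, chr7:45434589-45434838, plus strand: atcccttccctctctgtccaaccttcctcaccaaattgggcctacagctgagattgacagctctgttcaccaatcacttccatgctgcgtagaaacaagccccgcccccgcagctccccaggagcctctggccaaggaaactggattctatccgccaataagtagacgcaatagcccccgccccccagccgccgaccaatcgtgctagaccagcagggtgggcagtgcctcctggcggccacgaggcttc
Gbe1, chr16:70313699-70313948, plus strand: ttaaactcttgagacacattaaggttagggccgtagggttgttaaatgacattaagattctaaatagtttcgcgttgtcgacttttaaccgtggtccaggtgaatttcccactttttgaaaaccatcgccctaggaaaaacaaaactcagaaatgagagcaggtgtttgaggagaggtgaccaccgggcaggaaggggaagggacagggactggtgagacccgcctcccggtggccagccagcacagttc
The Ppp1r3c window held the core at 3 places. The nearest to the start was CACGTG, 99 to 104 bases before it, and the others lay 185 to 189 and 217 to 221 bases before it. The windows of Gys1 and Gbe1 held neither set of letters. Over all 32851 promoter windows of this length, 38.6% held ACGTG or GCGTG, 16.6% held ACGTG, 28.2% held GCGTG and 6.02% held CACGTG. The share of windows with 3 places was not counted. A match is a description of the letters and not of a bound site.

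All values below are log2 intensities after quantile normalization unless a deposited intensity is named. The deposited values had a lowest value of 20, which is 4.32 on the log2 scale and is called the floor. A value at the floor gives only an upper bound of the level, so that a difference from it can be understated. The 3 genes were dim. Ppp1r3c was above the floor on 56 of 63 arrays, with deposited intensities of 20 to 145. The 2 Gys1 probes were above it on 55 and 32 arrays and reached 55.3 and 49.5. Gbe1 was at the floor on all 63 arrays, so no level, fold change or test can be given for the branching enzyme. Its deposited value was 20 on 62 arrays and 21.9 on 1 array, a G9a KO2 culture at 4 h, where 9339 probes were tied at that value and were treated as being at the floor. Ppp1r3c and the brighter Gys1 probe entered the tests over 8740 genes, 1 probe for each gene, and adjusted p-values are limma's with Benjamini-Hochberg adjustment over those genes.

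Checks of the samples bear on how the values are read. The Kdm3a probe was at the floor in all JMJD1a KO cultures, against a mean of 10.4 ± 0.24 (SD, n = 6) in wild-type normoxia, while the Ehmt2 probe stayed above the floor in G9a KO (7.80 ± 0.27 in normoxia, SD, n = 6). Where that probe lies relative to the deleted part of G9a is not given in the sources used here, so it checks nothing. All 8 stem cell markers listed were above the floor on every array, and 4 of 7 feeder fibroblast markers (Col3a1, Dcn, Lum and Postn), 2 of 6 markers of liver and endoderm (Alb and Ttr) and 2 of 5 muscle markers (Ckm and Myod1) were at the floor on every array. The other markers of these lists were above the floor on some arrays, and 1 feeder marker was on all. Summed over the floor, feeder signal was at most 159, at 24 h, against at least 28707 for the stem cell markers at that exposure. The Y-linked Eif2s3y was above the floor on 4 of 9 WT2 arrays, at most 5.52, and on 9 of 9 arrays of each other line, where it was at least 7.16, so that WT2 goes against its label in this gene and the members' wild-type hypoxia responses and the counts of the pathway list are also given for WT1 alone. Arrays moved together in 8 sets of consecutive arrays. Set explained 98.6% of the first principal component, line 82.8% and exposure 0.693%, and line and set largely coincide. The cultures of a line differ in density and are not stated to be independent repeats, so p-values measure only the spread between these cultures.

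Ppp1r3c rose in every genotype after 4 h of hypoxia, by 4.72-fold in wild-type, 4.95-fold in JMJD1a KO, 2.89-fold in G9a KO and 4.16-fold in reconstituted cells. It then fell again, and at 24 h it was 1.33-fold to 1.75-fold above normoxia. In wild-type normoxia the 6 cultures ran from 4.32 through a median of 4.53 to 4.95, with 3 of them at the floor. At 4 h they ran from 6.42 through 6.84 to 7.13, and at 24 h from 4.77 through 5.05 to 5.84. The 4 h cultures thus stood clear of both other exposures, while the 24 h cultures overlapped those in normoxia. The rise at 4 h was 2.24 ± 0.12 (SE), or 4.72-fold, with an adjusted p of 1.3e-19, and it ranked 11 by size among all rises in a comparison where 27.3% of all genes tested were called. At 24 h the difference from normoxia was 0.53 ± 0.12 (1.45-fold, adjusted p = 4.1e-04, 36.9% of genes called). From 4 h to 24 h the level fell by 1.70 on the log2 scale (SE 0.12, adjusted p = 7.7e-15, 26.5% called), which ranked 2 by size among all falls.

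The wild-type lines were also read one by one. WT1 alone rose by 2.20 ± 0.17 at 4 h (adjusted p = 7.6e-14, 15.3% of genes called) and by 0.88 ± 0.17 at 24 h (adjusted p = 1.0e-04, 27.8% called). WT2 alone rose by 2.28 ± 0.17 at 4 h (adjusted p = 4.8e-14, 16.1% called), and its difference at 24 h was 0.19 ± 0.17 (adjusted p = 0.437, 32.8% called). So the 4 h rise had about the same size in both lines, and the 24 h call for wild-type cells rested on WT1. At 24 h the WT1 cultures were 5.07, 5.12 and 5.84 at densities 2, 4 and 6. The highest of them was the only WT1 culture outside the array set of the others. The difference between the lines was not tested.

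**Figure D1:**
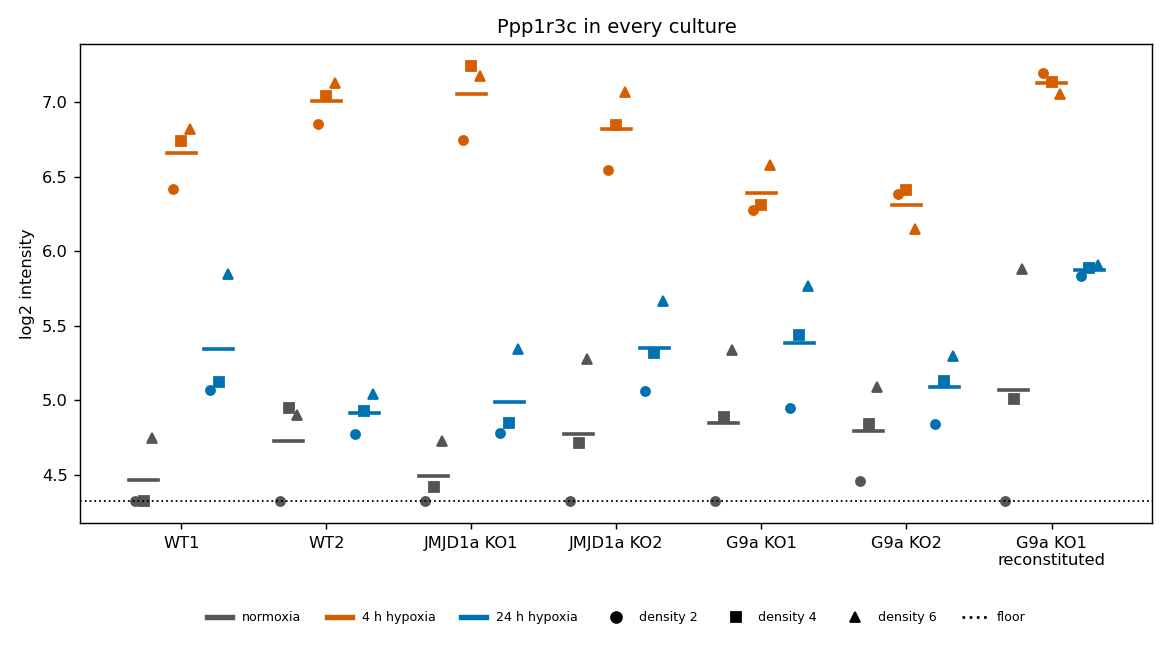
Log2 intensity of Ppp1r3c (vertical axis) in each of the 63 cultures, by line (horizontal axis), exposure (colour) and density (marker). Horizontal bars are the means of 3 cultures and the dotted line is the floor of 4.32. All 21 cultures at 4 h, 6.15 to 7.24, lie above all 21 in normoxia, 4.32 to 5.88.

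The same course was seen in the other genotypes. The 6 JMJD1a KO cultures ran from 4.32 through 4.57 to 5.27 in normoxia, from 6.54 through 6.96 to 7.24 at 4 h and from 4.78 through 5.19 to 5.67 at 24 h. Their rise was 2.31 ± 0.12 at 4 h (adjusted p = 4.8e-20, 30.4% of genes called) and 0.54 ± 0.12 at 24 h (adjusted p = 2.6e-04, 50% called), and the fall between them was -1.77 ± 0.12 (adjusted p = 8.8e-16, 34.8% called). The 4 h cultures again stood clear of the other exposures.

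The 6 G9a KO cultures ran from 4.32 through 4.86 to 5.34 in normoxia, from 6.15 through 6.35 to 6.58 at 4 h and from 4.84 through 5.21 to 5.77 at 24 h. The rise at 4 h was 1.53 ± 0.12, or 2.89-fold (adjusted p = 3.6e-14, 33.8% of genes called), that at 24 h was 0.41 ± 0.12 (adjusted p = 0.00424, 45.9% called), and the fall between them was -1.12 ± 0.12 (adjusted p = 3.1e-10, 37.2% called). Both lines gave nearly the same 4 h response, 1.54 ± 0.17 in G9a KO1 (adjusted p = 2.2e-09, 23.0% called) and 1.52 ± 0.17 in G9a KO2 (adjusted p = 1.8e-09, 23.5% called). At 24 h they gave 0.54 ± 0.17 (adjusted p = 0.0105, 40.4% called) and 0.29 ± 0.17 (adjusted p = 0.220, 28.9% called). The group's call at 24 h was lost with the array set as a fixed block (0.57, adjusted p = 0.121) and with no density term (0.41, adjusted p = 0.0673).

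The 3 reconstituted cultures, at densities 2, 4 and 6, gave 4.32, 5.01 and 5.88 in normoxia, 7.20, 7.14 and 7.05 at 4 h, and 5.83, 5.89 and 5.91 at 24 h. The differences from normoxia were 2.06 ± 0.17 at 4 h (adjusted p = 4.7e-13, 37.4% of genes called) and 0.81 ± 0.17 at 24 h (adjusted p = 2.1e-04, 39.1% called), and that from 4 h to 24 h was -1.25 ± 0.17 (adjusted p = 5.2e-07, 18.5% called). Normoxia spread widely over the densities here, while the hypoxic cultures did not. The normoxia culture at density 6 shared an array set with the hypoxic cultures, and those at densities 2 and 4 lay in another set. Density and array set therefore cannot be told apart in this spread, and the culture at density 2 was at the floor. With the array set as a fixed block the 24 h difference was 0.23 (adjusted p = 0.543).

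Taking each line as 1 value, Ppp1r3c was higher at 4 h than in normoxia in 7 of 7 lines (mean 2.03 ± 0.38, SD, n = 7), higher at 24 h than in normoxia in 7 of 7 (0.54 ± 0.25), and lower at 24 h than at 4 h in 7 of 7 (-1.49 ± 0.43). Each of these gave p = 0.0156 in an exact two-sided sign-flip permutation test, the smallest p that 7 lines allow, and 0.0234 after adjustment over the 6 tests on Ppp1r3c and Gys1. The reconstituted line derives from G9a KO1 and is not independent of it, and over the other 6 lines each gave p = 0.0312 by the same exact permutation test, the smallest p that 6 lines allow, and 0.0469 after adjustment. Where cultures of 1 line on both exposures lay in the same array set, the 4 h difference was positive in 6 of 6 comparisons (1.25 to 2.57) and the 24 h minus 4 h difference was negative in 6 of 6 (-2.23 to -1.06). The 24 h minus normoxia difference was 0.63 in WT1 (densities 2 and 4 against densities 2, 4 and 6) and 0.05 in WT2 (density 2 against densities 2, 4 and 6). It was -0.0033 in the reconstituted line (densities 2, 4 and 6 against density 6). The 4 h rise and its later fall were therefore present within each set that could show them. The 24 h comparisons with normoxia did not match densities, and Ppp1r3c rose with density in normoxia. They therefore cannot show which of these 3 lines kept a 24 h difference.

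Gys1 moved the other way on the brighter probe, which fell in wild-type, JMJD1a KO and reconstituted cells. No change was called on it in G9a KO cells, where it lay near the floor already in normoxia. The dimmer probe did not fall in reconstituted cells, and the JMJD1a KO and reconstituted calls were lost with the array set as a fixed block. In wild-type normoxia the brighter probe ran from 4.46 through 5.77 to 6.07 over 6 cultures, at 4 h from 4.84 through 5.08 to 5.41, and at 24 h from 4.32 through 4.46 to 5.09. The lowest normoxia value belonged to WT1 at density 2, and apart from it the normoxia cultures lay above those at 24 h. Gys1 fell by 0.49 on the log2 scale at 4 h (SE 0.15, adjusted p = 0.0133) and fell by 1.00 at 24 h (SE 0.15, 2.00-fold, adjusted p = 1.0e-06), with -0.51 ± 0.15 between them (adjusted p = 0.0110). In WT1 alone the differences were -0.16 ± 0.22 at 4 h (adjusted p = 0.789) and -0.76 ± 0.22 at 24 h (adjusted p = 0.00717), and in WT2 alone they were -0.83 ± 0.22 (adjusted p = 0.00586) and -1.24 ± 0.22 (adjusted p = 2.1e-05). The fall at 24 h was thus called in both lines, the 4 h call on this probe rested on WT2, and the 24 h minus 4 h call was lost with the array set as a block.

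JMJD1a KO cells had the same pattern. Their 6 cultures ran from 5.24 through 5.61 to 5.84 in normoxia, from 4.57 through 5.13 to 5.45 at 4 h, and from 4.32 through 4.40 to 4.90 at 24 h, where 3 of 6 were at the floor. The differences from normoxia were -0.49 ± 0.15 at 4 h (adjusted p = 0.0124) and -1.07 ± 0.15 at 24 h (adjusted p = 2.1e-07), and the difference between hypoxia times was -0.58 ± 0.15 (adjusted p = 0.00300). All 24 h cultures lay below all those in normoxia. With the array set as a fixed block none of the 3 calls held (-0.38 at 4 h, -0.44 at 24 h and -0.06 between them, adjusted p = 0.0653, 0.449 and 0.962).

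In G9a KO cells the 6 normoxia cultures ran from 4.58 through 4.81 to 5.20, those at 4 h from 4.32 through 4.76 to 5.13, and those at 24 h from 4.33 through 4.42 to 5.08. The differences were -0.15 ± 0.15 at 4 h (adjusted p = 0.545), -0.31 ± 0.15 at 24 h (adjusted p = 0.0941) and -0.17 ± 0.15 between them (adjusted p = 0.444), none of them called. The normoxia mean was 4.87 against a floor of 4.32, so a fall as large as the wild-type one at 24 h could not be seen. Line by line, G9a KO1 gave -0.63 ± 0.22 at 4 h (adjusted p = 0.0315) and -0.68 ± 0.22 at 24 h (adjusted p = 0.0104), and G9a KO2 gave 0.34 ± 0.22 (adjusted p = 0.305) and 0.06 ± 0.22 (adjusted p = 0.944). The reconstituted cultures, at densities 2, 4 and 6, were 5.55, 5.19 and 5.18 in normoxia, 4.32, 4.95 and 4.79 at 4 h, and 4.32, 4.32 and 4.61 at 24 h. They gave -0.62 ± 0.22 at 4 h (adjusted p = 0.0223), -0.89 ± 0.22 at 24 h (adjusted p = 0.00117) and -0.27 ± 0.22 between them (adjusted p = 0.492). Both calls of the reconstituted line were lost with the array set as a fixed block, with differences of -0.44 and -0.70.

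**Figure D2:**
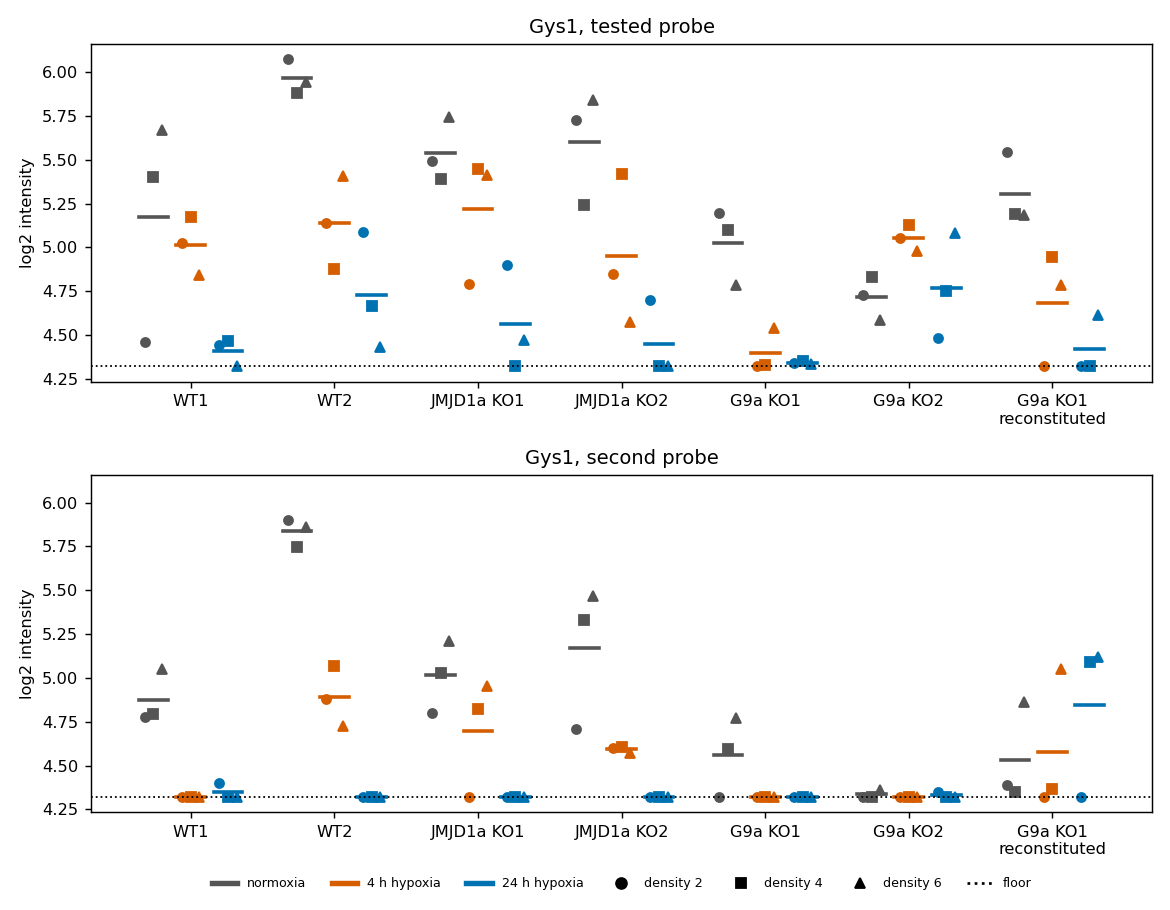
Log2 intensity of both Gys1 probes (vertical axes, one panel for each probe) in each of the 63 cultures, by line (horizontal axis), exposure (colour) and density (marker). Bars are means of 3 cultures and the dotted line is the floor. The wild-type and JMJD1a KO lines step down from normoxia to 24 h on both probes. On the second probe the G9a KO lines are near the floor at 4 h and 24 h, and the reconstituted line differs between the probes.

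The second Gys1 probe was dimmer and was tested over all 12754 probes kept. In wild-type normoxia it ran from 4.78 through 5.40 to 5.90, with the WT2 cultures highest, and at 24 h 5 of 6 cultures were at the floor. Its differences were -0.75 ± 0.10 at 4 h (adjusted p = 1.5e-07, 27.4% of probes called) and -1.02 ± 0.10 at 24 h (adjusted p = 5.1e-11, 35.7% called) in wild-type cells. In WT1 alone they were -0.55 ± 0.15 at 4 h (adjusted p = 0.00583, 15.0% called), where all 3 cultures were at the floor, and -0.53 ± 0.15 at 24 h (adjusted p = 0.00584, 25.2% called), so this probe was called down at 4 h in WT1 where the brighter one was not. In JMJD1a KO cells they were -0.45 ± 0.10 at 4 h (adjusted p = 6.2e-04, 31.8% called) and -0.77 ± 0.10 at 24 h (adjusted p = 3.6e-08, 49.9% called), where all 6 cultures were at the floor, so the level was at least 1.60-fold lower. Both probes thus gave the same direction and call in these genotypes. In G9a KO cells the second probe was above the floor in 3 of 6 normoxia cultures, 0 of 6 at 4 h and 1 of 6 at 24 h, which leaves little room for a fall. In reconstituted cells the probes disagreed, since the second gave 4.32, 5.09 and 5.12 at 24 h against 4.39, 4.35 and 4.86 in normoxia, a difference of 0.31 ± 0.15 (adjusted p = 0.0884, 37.1% of probes called).

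Over the 7 lines, the brighter Gys1 probe was lower at 24 h than in normoxia in 6 of 7 (mean -0.81 ± 0.43, SD, n = 7, exact sign-flip permutation p = 0.0312, adjusted 0.0375). It was lower at 4 h than in normoxia in 6 of 7 (-0.41 ± 0.40, exact p = 0.0625, adjusted 0.0625) and lower at 24 h than at 4 h in 7 of 7 (-0.40 ± 0.21, exact p = 0.0156, adjusted 0.0234). Without the reconstituted line the 24 h difference from normoxia no longer passed (-0.79 ± 0.47, SD, n = 6, exact permutation p = 0.0625, adjusted 0.0750). G9a KO2 was the line that did not fall from normoxia, and it had no comparison with normoxia within an array set. Within array sets the 4 h difference was negative in 6 of 6 comparisons (-0.83 to -0.16), the 24 h difference in 3 of 3 (-0.88 to -0.72) and the 24 h minus 4 h difference in 6 of 6 (-0.56 to -0.05). The second probe was lower than normoxia in 6 of 6 at 4 h and 3 of 3 at 24 h, while from 4 h to 24 h it was higher in 3 of 6 and lower in 2 of 6.

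**Figure D3:**
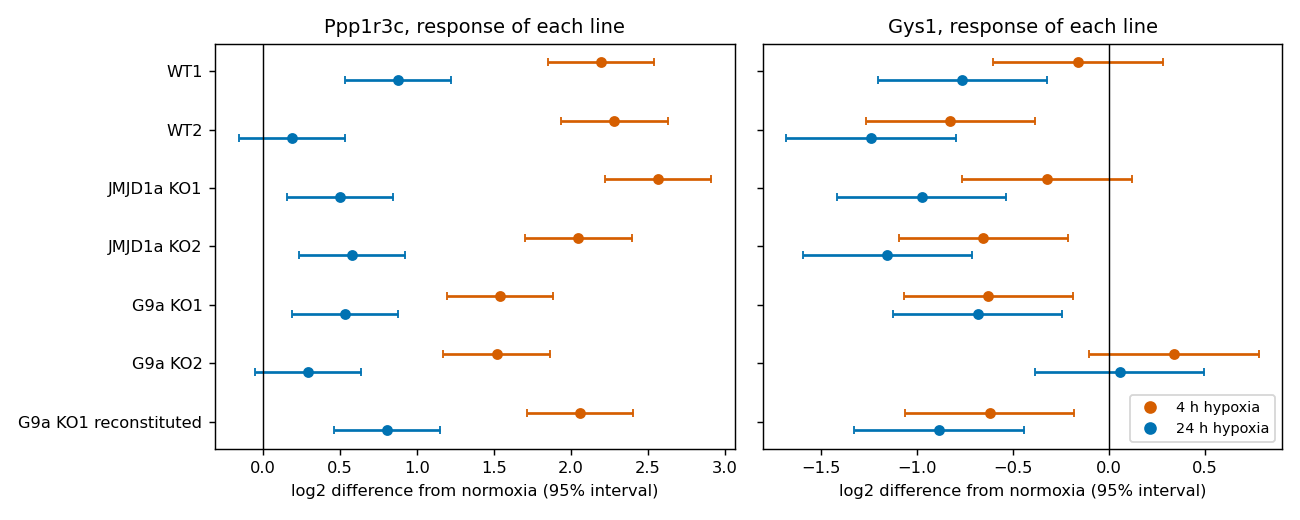
Log2 difference from normoxia (horizontal axis, with its 95% interval) of Ppp1r3c and of the brighter Gys1 probe in each of the 7 lines (vertical axis) after 4 h and 24 h of hypoxia. For Ppp1r3c the 4 h points, 1.52 to 2.57, all lie above the 24 h points, 0.19 to 0.88. For Gys1 all lines but G9a KO2 lie below 0 at both times.

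Knockout lines were compared with wild-type lines on line means, 2 lines against 2, because cultures of 1 line share their source. No member was called in any of these comparisons. JMJD1a KO and wild-type lines differed in Ppp1r3c by 0.04 in normoxia (95% interval -0.36 to 0.43, adjusted p = 1.00), by 0.10 at 4 h (-0.32 to 0.53, adjusted p = 0.970) and by 0.04 at 24 h (-0.57 to 0.65, adjusted p = 1.00). In Gys1 they differed by 0.00 (-0.83 to 0.83, adjusted p = 1.00), 0.01 (-0.68 to 0.69, adjusted p = 1.00) and -0.06 (-0.60 to 0.47, adjusted p = 0.979). Of all 8740 genes, 1 was called at each exposure (0.0114%), and 379 to 541 had an unadjusted limma p under 0.05. The differences between their hypoxia responses were 0.07 at 4 h (-0.39 to 0.53) and 0.00 at 24 h (-0.69 to 0.70) for Ppp1r3c, in comparisons where 0% of genes were called by limma and 416 and 229 had an unadjusted p under 0.05. Of the Ppp1r3c intervals, those for the level and the response at 24 h held a difference as large as the wild-type 24 h response of 0.53. Those at 4 h reached up to about that size, and only the one in normoxia ended clearly below it. Without WT2 only 1 wild-type line is left, so the spread between wild-type lines cannot be measured. With 1 line left out at a time, the JMJD1a KO minus wild-type differences of Ppp1r3c ran from -0.11 to 0.18 in normoxia. They ran from -0.070 to 0.28 at 4 h and from -0.17 to 0.26 at 24 h.

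For Ppp1r3c, the G9a KO minus wild-type difference in level at 4 h was -0.48 ± 0.16 (95% interval -0.90 to -0.06, adjusted p = 0.0777, 34.3% of genes called). It was 0.23 ± 0.14 in normoxia (adjusted p = 0.286, 23.4% called) and 0.11 ± 0.23 at 24 h (adjusted p = 0.739, 6.78% called). The 4 h responses differed, G9a KO minus wild type, by -0.71 ± 0.18 (-1.17 to -0.25, unadjusted p = 0.0113, adjusted p = 0.263), where 7 of 8740 genes were called (0.0801%). The 24 h response differed by -0.12 ± 0.26 (-0.82 to 0.58, adjusted p = 1.00), where 0% of genes were called by limma and 553 had an unadjusted p under 0.05. Neither 4 h difference passed the threshold with lines as the unit. With the 6 cultures of each genotype taken as the unit both did, but cultures of 1 line are not independent samples of a genotype. That setting therefore does not test the genotypes. For Gys1, G9a KO minus wild type was -0.70 ± 0.30 in normoxia (adjusted p = 0.154), -0.35 ± 0.25 at 4 h (adjusted p = 0.321) and -0.01 ± 0.20 at 24 h (adjusted p = 0.976), and the 24 h response differed by 0.69 ± 0.31 (-0.15 to 1.52, adjusted p = 0.883). The genotypes also lay in different array sets, and with the set as a fixed block the Gys1 level differences in normoxia and at 4 h turned positive (1.16 and 1.01, adjusted p = 0.476 and 0.666), as did that of Ppp1r3c at 4 h (0.48, adjusted p = 0.815). No array set held both wild-type and G9a KO arrays, so that fit links them only through arrays of other lines. It therefore cannot show that a difference is reversed.

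Putting G9a back was compared as 1 line against its parent line, G9a KO1. Ppp1r3c was higher in the reconstituted line by 0.74 ± 0.17 at 4 h (adjusted p = 3.6e-04, 54.4% of genes called) and by 0.49 ± 0.17 at 24 h (adjusted p = 0.0133, 55.5% called), and the difference in normoxia was 0.22 ± 0.17 (adjusted p = 0.388, 28.2% called). At 4 h the 3 parent cultures were 6.28, 6.31 and 6.58, below the reconstituted 7.20, 7.14 and 7.05. The response differed by 0.52 ± 0.24 at 4 h (adjusted p = 0.118, 20.8% called) and by 0.27 ± 0.24 at 24 h (adjusted p = 0.409, 32.4% called). With the array set as a fixed block the level differences were 0.06 at 4 h and -0.09 at 24 h, neither called. The brighter Gys1 probe differed from the parent by 0.28 ± 0.22 in normoxia (adjusted p = 0.394), 0.29 ± 0.22 at 4 h (adjusted p = 0.276) and 0.08 ± 0.22 at 24 h (adjusted p = 0.804). The second Gys1 probe gave -0.03 ± 0.15 in normoxia (adjusted p = 0.967, 25.4% of probes called), 0.26 ± 0.15 at 4 h (adjusted p = 0.135, 52.1% called) and 0.52 ± 0.15 at 24 h (adjusted p = 0.00233, 54.1% called), and its 24 h response differed by 0.55 ± 0.21 (adjusted p = 0.0361, 32.0% called). More than 50% of all genes and probes were called between these lines at 4 h and at 24 h, so a call on a member's level there does not stand out from the background.

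Ppp1r3c also rose with the number of cells plated. Over all lines and exposures the slope was 0.25 ± 0.03 log2 units for each further 200000 cells (adjusted p = 3.8e-08, rank 51 by size, 32.7% of genes called). In normoxia the mean over 7 lines was 4.34 ± 0.05 (SD) at density 2, where 6 of 7 cultures were at the floor, 4.73 ± 0.27 at density 4 and 5.14 ± 0.41 at density 6. At 24 h it was 5.04 ± 0.37, 5.24 ± 0.35 and 5.55 ± 0.33, and at 4 h 6.63 ± 0.32, 6.82 ± 0.36 and 6.85 ± 0.37. The rise in normoxia is a lower bound, because of the floor. Density 6 was above density 2 in 7 of 7 lines in normoxia (by 0.41 to 1.56), in 7 of 7 at 24 h (0.07 to 0.82) and in 5 of 7 at 4 h (-0.23 to 0.53). Among these 7 lines, the reconstituted one had its normoxia cultures at densities 2 and 6 in different array sets.

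The slopes were 0.40 ± 0.05 in normoxia (adjusted p = 4.2e-08, 19.1% of genes called), 0.25 ± 0.05 at 24 h (adjusted p = 2.1e-04, 16.5% called) and 0.11 ± 0.05 at 4 h (adjusted p = 0.0865, 22.8% called). The slope at 4 h was smaller than that in normoxia by -0.29 ± 0.07 (adjusted p = 0.00720, 5.98% of genes called), and that at 24 h differed by -0.14 ± 0.07 (adjusted p = 0.320, 3.04% called). The first difference did not pass under median scaling (-0.23), no scaling (-0.21) or without the reconstituted line (-0.19). The density slope of the brighter Gys1 probe was 0.02 ± 0.04 (adjusted p = 0.758), and density 6 was above density 2 in 3, 4 and 2 of 7 lines in normoxia, at 4 h and at 24 h. The second Gys1 probe had a slope of 0.10 ± 0.03 (adjusted p = 0.00392, 30.7% of probes called), with normoxia means of 4.75, 4.88 and 5.08 at densities 2, 4 and 6. The Gys1 probes thus disagreed on density, and the difference in slope between Ppp1r3c and Gys1 was not tested.

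**Figure D4:**
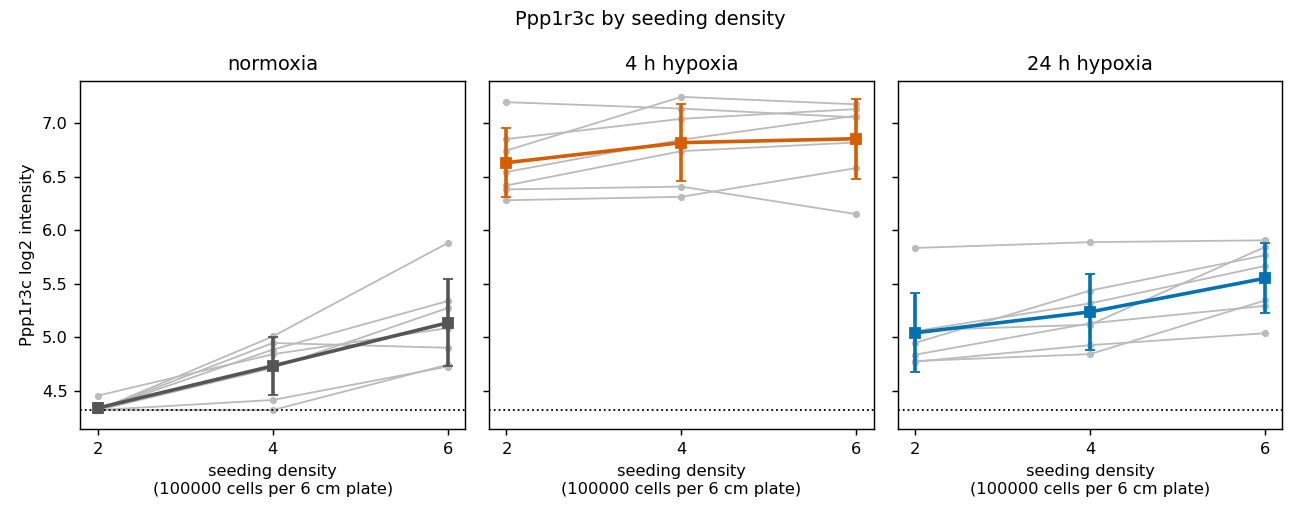
Log2 intensity of Ppp1r3c (vertical axis) against seeding density (horizontal axis, in 100000 cells per 6 cm plate), one panel for each exposure. Grey lines are the 7 lines, coloured squares are their means with SD bars, and the dotted line is the floor. The mean climbs from 4.34 to 5.14 in normoxia and from 6.63 to 6.85 at 4 h.

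The rest of the pathway was followed with a list of 30 further glycogen genes, of which 26 had a probe and 19 passed the filter on low values. A gene could pass it through any line and exposure, so some of the 19 were at the floor in wild-type cells. In wild-type cells 5 of these 19 rose and 1 fell at 4 h, with a median difference of 0.10 against 0.00 for all genes tested, and 6 rose and 5 fell at 24 h, with a median of 0.13 against 0.00. These 6 of 19 and 11 of 19 called stand beside the 27.3% and 36.9% of all genes. Of the 3 tested genes of precursor supply, Pgm1, the phosphoglucomutase that interconverts glucose 1-phosphate and glucose 6-phosphate, gained 1.52 ± 0.16 at 4 h (adjusted p = 3.0e-10) and 1.78 ± 0.16 at 24 h (adjusted p = 2.6e-12). Ugp2, which makes UDP-glucose, gained 0.25 ± 0.08 at 24 h (adjusted p = 0.0102) and was not called at 4 h (0.18 ± 0.08, adjusted p = 0.0890), and Pgm2l1 was called at neither time (0.06 ± 0.09 and 0.00 ± 0.09, adjusted p = 0.685 and 1.00). Pgm2l1 was above the floor in 0 of 6 wild-type cultures in normoxia, 1 of 6 at 4 h and 0 of 6 at 24 h. Its values therefore cannot show whether it changed. The wild-type means of Pgm1 were 8.23, 9.75 and 10.0 in normoxia, at 4 h and at 24 h, without the fall from 4 h to 24 h seen in Ppp1r3c.

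Among the partners of the 3 genes, Ppp1r3f, another targeting subunit of the same family, rose by 0.56 ± 0.13 at 4 h (adjusted p = 5.3e-04) and was at -0.10 ± 0.13 at 24 h (adjusted p = 0.620). Its family members Ppp1r3a and Ppp1r3b did not pass the filter on low values. The phosphatase subunit Ppp1cb changed by -0.29 ± 0.07 at 4 h (adjusted p = 0.00183) and -0.19 ± 0.07 at 24 h (adjusted p = 0.0386), and Ppp1ca and Ppp1cc were not called at either time. Gyg, glycogenin, the protein primer of new glycogen chains, rose by 0.51 ± 0.16 at 24 h (adjusted p = 0.00949). The kinases Gsk3a and Gsk3b, which phosphorylate and restrain glycogen synthase, were called at neither time. Gsk3a was above the floor in 0 of 6 wild-type cultures in normoxia, 1 of 6 at 4 h and 3 of 6 at 24 h, so its differences can be understated. Gys2, the liver-type synthase, did not pass the filter.

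On the side of breakdown, Pygl, the liver-type glycogen phosphorylase, rose by 1.18 ± 0.09 at 4 h (adjusted p = 5.8e-14) and 1.50 ± 0.09 at 24 h (adjusted p = 1.6e-17), and Pygb, the brain-type enzyme, by 0.19 ± 0.07 at 24 h (adjusted p = 0.0253). Gaa, the lysosomal glucosidase, was at 0.18 ± 0.07 at 4 h (adjusted p = 0.0408) and -0.46 ± 0.07 at 24 h (adjusted p = 3.7e-07), called in opposite directions. Subunits of phosphorylase kinase, which activates phosphorylase, were mixed: Phka2 rose at 4 h (0.43 ± 0.10, adjusted p = 0.00145) and Phka1 at 24 h (0.39 ± 0.14, adjusted p = 0.0263), while Phkg2 (-0.41 ± 0.12, adjusted p = 0.00393) and Phkb (-0.28 ± 0.08, adjusted p = 0.00788) fell at 24 h. Phka1 was above the floor in 0 of 6 wild-type cultures in normoxia and in 3 of 6 at 24 h. Nhlrc1, known as malin, a ubiquitin ligase that acts on glycogen-associated proteins including the Ppp1r3c product, fell by 0.87 on the log2 scale at 24 h (SE 0.10, adjusted p = 1.5e-09). Calls were thus made in both directions over the list. In WT1 alone 3 of the 19 rose and 0 fell at 4 h (Pgm1, Pygl and Ppp1r3f), and 4 rose and 5 fell at 24 h, beside 15.3% and 27.8% of all genes called. The calls not made in WT1 alone were those of Ppp1cb, Gaa and Phka2 at 4 h and of Gyg, Pygb and Phka1 at 24 h, and Gyg there was at -0.14 ± 0.23 (adjusted p = 0.736).

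**Figure D5:**
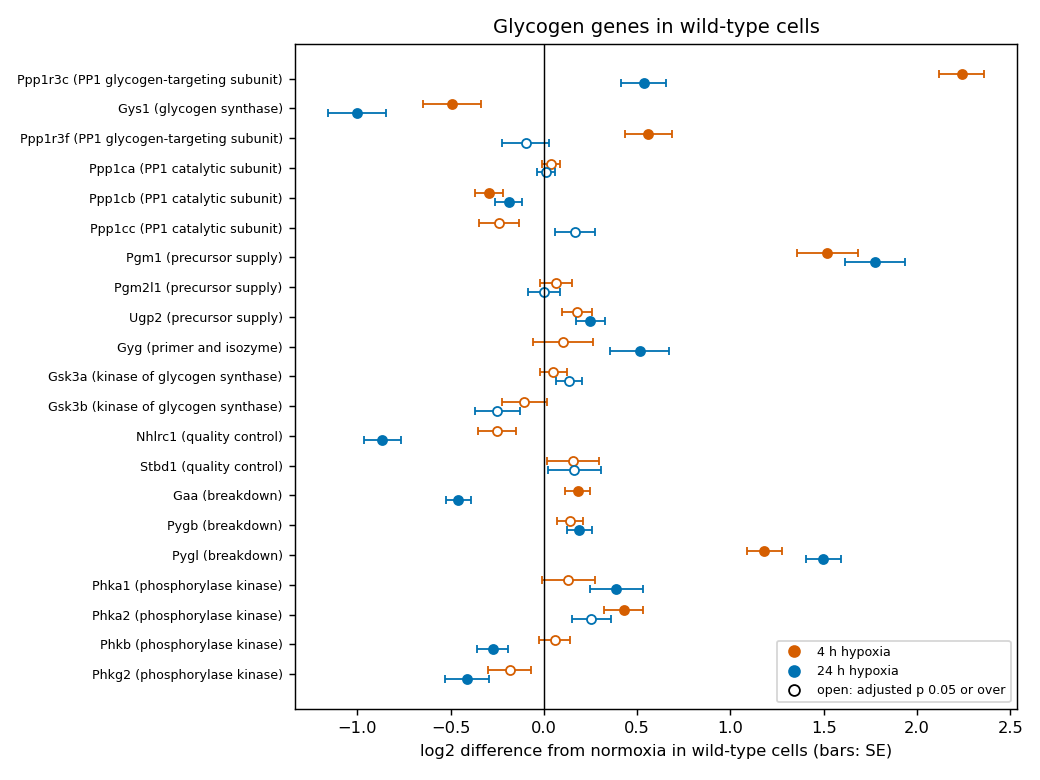
Log2 difference from normoxia with its SE (horizontal axis) of Ppp1r3c, Gys1 and 19 further glycogen genes (vertical axis, with their roles) in wild-type cells after 4 h and 24 h of hypoxia. Open circles did not pass the threshold of 0.05. Ppp1r3c, Pgm1 and Pygl lie farthest to the right at 4 h, and Gys1 lies farthest to the left at both times.

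Counts over the 19 genes in the other genotypes are given beside the share of all genes called, and no difference between genotypes in these counts was tested. At 4 h 3 rose and 4 fell in JMJD1a KO (30.4% of all genes called), 3 rose and 2 fell in G9a KO (33.8%), and 7 rose and 1 fell in reconstituted cells (37.4%). At 24 h 5 rose and 6 fell in JMJD1a KO (50%), 3 rose and 7 fell in G9a KO (45.9%), and 6 rose and 2 fell in reconstituted cells (39.1%). Pgm1 and Pygl rose in each genotype at both times, by 1.21 to 2.23 and by 1.18 to 1.77. Between knockout and wild-type lines, 0 of the 19 were called for JMJD1a at any exposure (2, 0 and 2 of them at an unadjusted limma p under 0.05). For G9a, 3 were higher and 6 lower in normoxia (23.4% of all genes called), with a median of -0.24 against -0.12 for all genes, and 2 were higher and 7 lower at 4 h (34.3% called), with -0.23 against -0.14. At 24 h 0 of the 19 were called by limma (6.78% of all genes), and 9 had an unadjusted p under 0.05. With density, 5 of the 19 rose and 2 fell, beside 32.7% of all genes called, with Pgm1 (0.36 ± 0.04, adjusted p = 1.1e-08) and Pygl (0.33 ± 0.02, adjusted p = 1.0e-13) among the former.

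Genes with the course most like that of each member were found by correlating the 21 line and exposure means, centred within each line, over the other 8739 genes tested. Ppp1r3c was most like Dlx3 (r = 0.98), Slc9a8 (0.97) and N4bp2 (0.97), and after removal of array-set means most like Dlx3 (0.97), Homer1 (0.97) and Slc9a8 (0.97). In wild-type cells these genes shared the early peak, with differences of 1.38 and 0.61 at 4 h and 24 h for Dlx3, 1.11 and 0.16 for Slc9a8, and 0.67 and 0.27 for N4bp2. Gys1 was most like Qprt (0.92), Fam25c (0.91) and Cc2d1b (0.90), and after removal of set means most like Nmral1 (0.94), Pcca (0.94) and Drap1 (0.94). Ppp1r3c and Gys1 were correlated with each other at r = -0.23. These values describe 21 means that share lines and arrays, and they carry no test.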

How the data were processed

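Total RNA of 63 cultures was hybridized to single-colour Illumina bead arrays. The analysis started from the deposited intensity values, on a linear scale, for 25697 probes. BeadStudio is named in the submitters' processing notes, with its version, its role and the authors' normalization not given in the sources used here. The lowest value was 20 on each array and was shared by many probes. A companion table with 126 columns of per-sample values names them by chip and position, which no label ties to a sample, and it was not used here. The summed intensity of an array lay between 6974757 and 8408782, with 40.3 to 46.4% of its probes over the floor. How many cultures and lines there were sets the precision, as does the floor for dim probes.

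The log2 values were quantile normalized (limma 3.58.1, R 4.3.3), and values under 4.32 were then set to that floor. Probes over the floor in 3 of 3 cultures of any line and exposure passed the filter (12754 probes, while 10926 were at the floor throughout), and each of 8740 genes was represented by its probe with the highest mean. The array annotation gave 23978 probes 1 symbol and 1719 none. Hypoxia was tested with limma across all genes on 21 means of line and exposure with a density term, density as a slope within them, and knockout against wild type on line means. P-values are two-sided with a threshold of 0.05, and ± is the SE unless SD is named. The fit was tested on simulated data. The named genes were all member probes, listed glycogen genes past the threshold in wild-type cells (up to 6 for each contrast) and the 3 genes most like each member. The members and lists were chosen with earlier results of these data known. An array set is 8 consecutive arrays in the order of deposit, since no label gives a chip. Deviations from group means correlated between cultures that shared line and density at a median r of 0.17 and a lowest of -0.15, with 42 of 63 correlations above 0.1, so densities were not taken as pairs. Scaling, an offset of 50, filters, probes, array set, density, replicate block and left-out lines and cultures were varied.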

Additional observations from a re-analysis of the deposited data

Results flagged for a closer look

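Among 27 groups of 6 cultures (9 for each of 3 probes), 3 held a culture that stood apart from the other 5. In the 2 groups of the second Gys1 probe the other 5 cultures were tied at the floor, so that any value above it would stand apart, and the usual chance rate of about 1 in 20 groups does not apply to them. Ppp1r3c in the wild-type 24 h group was 5.84 in WT1 at density 6, against 4.77 to 5.12 in the other 5 cultures. The second Gys1 probe was 4.40 in WT1 at density 2 at 24 h, where the other 5 wild-type cultures were at the floor. The same probe was 4.35 in G9a KO2 at density 2 at 24 h, where the other 5 G9a KO cultures were at the floor. In the main fit on the log2 scale, the density slope of Ppp1r3c differed between exposures, with 4 h minus normoxia at -0.29 log2 units for each 200000 cells by limma. That call was lost under several other settings. At density 2 in normoxia 6 of 7 cultures were at the floor, and the part of this in the difference was not tested.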

How the results depend on the processing

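Of 697 repeats of the members' results, 597 kept direction and side of the threshold, 39 lost the threshold, 15 passed it newly, and 46 changed sign, 45 of them in results not called either way. The Ppp1r3c rise at 4 h and fall from 4 h to 24 h kept direction and call in each genotype under every alternative run on them, as did the wild-type Gys1 fall at 24 h. The filter that keeps only probes above the floor on all arrays gave no value, since neither member passes it, and signal over the floor limits both genes. The cause of the changes was not tested.

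Without scaling, the values were 0.26 for Ppp1r3c in reconstituted minus parent cells at 24 h (not called), 0.46 for Ppp1r3c in G9a KO minus wild type in normoxia (called), 0.16 for its 4 h density slope (called), -0.21 for its slope difference between 4 h and normoxia (not called), 0.15 for Gys1 in G9a KO minus wild type at 24 h and -0.0015 for Gys1 in reconstituted minus parent at 24 h. Median scaling gave 0.28 for Ppp1r3c in reconstituted minus parent at 24 h (not called), 0.15 and -0.23 for its 4 h slope (called) and slope difference (not called), 0.078 for Gys1 in G9a KO minus wild type at 24 h and -0.0034 for Ppp1r3c in JMJD1a KO minus wild type in normoxia. An offset of 50 before log2 gave 0.077 (called) and -0.068 (not called) for the 2 slopes and -0.020 for Gys1 in JMJD1a KO minus wild type in normoxia.

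With array set as a fixed block, calls were lost for Gys1 in wild type between 4 h and 24 h (-0.29), in JMJD1a KO (-0.38, -0.44 and -0.065) and in reconstituted cells (-0.44 and -0.70), and for Ppp1r3c at 24 h in G9a KO (0.57) and reconstituted cells (0.23) and in reconstituted minus parent at 4 h (0.061); that at 24 h turned to -0.090. Signs turned, uncalled, for Gys1 in JMJD1a KO minus wild type at 24 h (1.28) and in its 24 h response (0.34), in G9a KO minus wild type (1.16, 1.01 and 1.11 for the 3 exposures, -0.15 and -0.048 for the responses) and in reconstituted minus parent (-0.66, -0.45 and -0.53), and for Ppp1r3c in G9a KO minus wild type at 4 h (0.48). Wild-type and G9a KO arrays shared no set, so their level differences in this fit rest on arrays of other lines. As a random block the set gave, no longer called, -0.35 for Gys1 in wild type between 4 h and 24 h, -0.49 for reconstituted Gys1 at 4 h, and for Ppp1r3c 0.37 in reconstituted cells at 24 h and 0.37 and 0.083 in reconstituted minus parent at 4 h and 24 h. With no density term, 0.41 for Ppp1r3c in G9a KO at 24 h and 0.49 in reconstituted minus parent at 24 h were no longer called. With cultures as the unit, G9a KO minus wild type was called for Gys1 in normoxia (-0.70), at 4 h (-0.35) and in the 24 h response (0.69), and for Ppp1r3c at 4 h (-0.48) and in the 4 h response (-0.71). Cultures of 1 line are not independent samples of a genotype, so these calls do not test the genotypes. The replicate block of line and density changed no call (wild-type Ppp1r3c stayed at 2.24 at 4 h). It cannot be used for reconstituted minus parent, which it absorbs. Leaving out the array with a second tied value, chosen after seeing the data, changed no call. Leaving the reconstituted line out of the test over lines, also chosen then, lost the Gys1 call at 24 h (-0.79).

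Leaving out 1 line, culture or density at a time gave these ranges where a call or sign changed; with 1 line left in a group, that line is assumed to vary like the others. Calls were lost for Gys1 in wild type at 4 h (-0.83 to -0.16) and between 4 h and 24 h (-0.60 to -0.41), in JMJD1a KO at 4 h (-0.66 to -0.32) and between 4 h and 24 h (-0.65 to -0.50), and in reconstituted cells at 4 h (-0.81 to -0.32). They were lost for Ppp1r3c at 24 h in wild type (0.19 to 0.88), G9a KO (0.29 to 0.54) and reconstituted cells (0.45 to 1.20), in reconstituted minus parent at 24 h (0.30 to 0.67), for its density slope at 24 h (0.20 to 0.31) and for the slope difference of 4 h from normoxia (-0.37 to -0.19). Calls appeared for the 4 h slope (0.037 to 0.19), for Ppp1r3c in G9a KO minus wild type at 4 h (-0.66 to -0.31) and for Gys1 there in normoxia (-1.10 to -0.30). For Gys1 in G9a KO at 4 h (-0.63 to 0.34) and 24 h (-0.68 to 0.055) G9a KO1 alone was called down and G9a KO2 alone was not. Signs turned, uncalled, for Gys1 in JMJD1a KO minus wild type (-0.39 to 0.40 in normoxia, -0.13 to 0.14 at 4 h, -0.22 to 0.10 at 24 h, -0.33 to 0.34 and -0.30 to 0.17 in the responses), for Ppp1r3c there (-0.11 to 0.18, -0.070 to 0.28, -0.17 to 0.26, -0.19 to 0.33 and -0.34 to 0.35), for G9a KO minus wild type in Gys1 at 24 h (-0.23 to 0.20) and its 4 h response (-0.14 to 0.83) and in Ppp1r3c at 24 h (-0.11 to 0.32) and its 24 h response (-0.47 to 0.23), for Gys1 in reconstituted minus parent at 24 h (-0.024 to 0.13) and for its density slope (-0.0010 to 0.039).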
